A study of Mus musculus with 36 samples.

Results

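The ribosomal protein genes are 83 mouse genes, most of which encode proteins of the cytosolic ribosome. They were chosen by name, as the genes whose whole symbol is Rpl or Rps, a number and at most a short suffix such as a, l or x, together with Rplp0, Rplp1, Rplp2 and Rpsa, and whose mean over all libraries was at least 20 CPM (counts scaled to a common library size). Genes with longer symbols, such as the S6 kinases and the pseudogenes marked ps, were thereby left out. Of the 49671 genes in the deposited table, 89 had such a name, 83 reached the minimum, and all 83 passed the filter on low counts, so that each was among the 17702 genes tested. They comprised 48 genes of the large subunit and 35 of the small subunit on 19 chromosomes. The lowest means inside the minimum were those of Rpl34 with 59.7 CPM and Rpl24 with 64.4 CPM, and the highest outside it were those of Rpl10l with 18.5 CPM and Rpl39l with 13.0 CPM. The annotation lists 3 of the members, Rps3a2, Rps3a3 and Rps4l, as pseudogenes.

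Cytosolic ribosomes are built from ribosomal RNA and one copy each of most ribosomal proteins, so cells make these proteins in similar amounts and their mRNAs are among the most abundant of a growing cell. Most of these mRNAs begin with a run of pyrimidines, through which their translation is tied to the mTOR kinase, while MYC is known as an activator of ribosome synthesis as a whole. A few genes have paralogues whose product can take the place of the usual protein, as Rpl22l1 can for Rpl22.

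RNA was sequenced from mouse embryonic stem cells (strain given as 129m wt) in 36 libraries of 11 groups. Substrates were tissue culture plastic and StemBond hydrogels, polyacrylamide gels with covalently bound matrix protein, in a soft and a stiff form. The medium contained serum in every group, and was supplemented with LIF, a cytokine that maintains self-renewal through STAT3, with PD03, which inhibits the kinase MEK upstream of ERK, with both or with neither. Both hydrogels were sampled at 48 h with each of these 4 media and at 24 h with LIF alone added, and plastic was sampled at 48 h with LIF alone added. Groups are called serum, serum + LIF, serum + PD03 or serum + LIF + PD03. Each group held 3 libraries, except soft serum + PD03 with 6. Libraries are named here by their group and their order in the count table, and nothing in the labels says that they came from separate cultures, so p-values measure only the spread between libraries, which may be technical.

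Library totals ranged from 10405696 to 26635239 counts. All 10 embryonic stem cell markers examined, among them Pou5f1 and Nanog, were above 1 CPM on average, with summed levels of 4264 to 5785 CPM. The 24 h and plastic libraries carried the same sequencing pool identifier, the stiff libraries of 48 h carried another, except for 1 of 3 in serum + LIF, and the soft libraries of 48 h a further one, except for 2 of 6 in serum + PD03. PD03 and LIF were therefore compared largely within a pool, whereas soft against stiff at 48 h, the time points, and both hydrogels against plastic were compared largely across pools. Values with the pool in the fit, over the 45 assignments of libraries to pools that the labels allow, are given beside these. Some libraries stood apart in these genes. Library 3 of soft serum + PD03 lay far outside the range of the other 5 libraries for 8 members, and library 2 of stiff serum and library 2 of soft serum + LIF had the lowest shares of mitochondrially encoded counts, 0.574% and 0.626%, against up to 2.92% in the plastic libraries. In stiff serum, the members of library 2 lay a median of 0.15 on the log2 scale above those of the other libraries and those of library 3 lay 0.12 below. Counts of called members and median changes that rest on these libraries are mostly given with and without them. Log2 changes of single genes include all libraries.

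The starts of 9 members are shown first, because they carry the results described next and illustrate how differently these promoters are composed. Sequences are from RefSeq on GRCm38.p6, and each runs from 100 bases before the annotated start into the first 20 bases of the transcript. Capitals mark a CCGGAA (the ETS core), ATGGCG or CCATNTT (both YY1 cores, which can overlap each other), CACGTG (the E-box), TATAAA or GGGCGG (the Sp1 core) on either strand, and the oligopyrimidine start, which is a C within 5 bases of the annotated start followed by at least 4 C or T on the coding strand. The first 4 genes were lower with PD03 in all 4 media and substrate pairs tested.
Rpl22l1 (chr3:28805408-28805527, plus strand): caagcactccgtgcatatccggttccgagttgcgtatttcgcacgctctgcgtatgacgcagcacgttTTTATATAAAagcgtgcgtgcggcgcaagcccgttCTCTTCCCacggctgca
Rpl7l1 (chr17:46782637-46782756, minus strand): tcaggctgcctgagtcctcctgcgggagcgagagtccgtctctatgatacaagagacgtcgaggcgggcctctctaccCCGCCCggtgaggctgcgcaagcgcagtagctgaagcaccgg
Rpl27 (chr11:101442145-101442264, plus strand): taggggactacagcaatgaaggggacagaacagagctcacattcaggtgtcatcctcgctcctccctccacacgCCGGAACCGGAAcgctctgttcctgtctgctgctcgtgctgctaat
Rpl7a (chr2:26910707-26910826, plus strand): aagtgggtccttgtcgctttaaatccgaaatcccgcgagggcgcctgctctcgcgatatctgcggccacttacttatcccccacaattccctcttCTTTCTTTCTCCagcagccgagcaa
The next 3 were higher with PD03 on soft hydrogels without LIF.
Rpl27a (chr7:109519095-109519214, plus strand): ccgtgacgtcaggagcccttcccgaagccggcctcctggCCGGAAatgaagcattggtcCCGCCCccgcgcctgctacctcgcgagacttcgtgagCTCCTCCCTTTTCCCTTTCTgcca
Rpl31 (chr1:39367751-39367870, plus strand): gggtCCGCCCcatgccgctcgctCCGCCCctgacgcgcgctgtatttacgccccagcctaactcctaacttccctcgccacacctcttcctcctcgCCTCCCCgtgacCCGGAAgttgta
Rps26 (chr10:128626487-128626606, minus strand): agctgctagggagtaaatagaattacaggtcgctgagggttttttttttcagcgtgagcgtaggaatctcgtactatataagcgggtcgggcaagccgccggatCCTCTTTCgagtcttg
The last pair was called higher on soft than on stiff hydrogels in 3 (Rpl14) and 2 (Rps28) of 5 comparisons.
Rpl14 (chr9:120571417-120571536, plus strand): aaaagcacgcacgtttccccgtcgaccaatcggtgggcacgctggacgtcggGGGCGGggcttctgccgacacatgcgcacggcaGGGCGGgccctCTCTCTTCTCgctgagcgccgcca
Rps28 (chr17:33824543-33824662, minus strand): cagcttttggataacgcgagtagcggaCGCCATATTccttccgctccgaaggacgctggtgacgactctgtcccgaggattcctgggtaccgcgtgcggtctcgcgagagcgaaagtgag

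Promoter windows of 250 bases before to 50 after the start were matched for 60 of the 83 members. In the windows of members, the ETS core was present in 56.7%, against 16.7% of 27018 genes in the same table. The Sp1 core was present in 63.3% against 38.2%, and the oligopyrimidine start in 48.3% against 21.2%. The YY1 cores ATGGCG and CCATNTT were found in 31.7% and 33.3% of members, against 10.2% and 18.2% of all genes. The E-box CACGTG, which MYC can bind, was in 6 of the 60 matched members and 8.09% of all genes, and TATAAA was in 11.7% and 15.7%. These are matches of letters and not sites shown to be bound.

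Levels differed widely between members and little between groups. Per kilobase of summed exon length, Rpl36 (1640 ± 181 CPM per kb, SD, n = 36), Rplp1 (1448 ± 90.1) and Rpl19 (1416 ± 105) were highest, and Rpl34 (22.6 ± 3.38), Rpl7l1 (44.2 ± 6.01) and Rpl22l1 (47.3 ± 12.7) were lowest, with a median of 312 over the members. Per kilobase of the longest transcript, the order at the top changed to Rpl19 (1927 CPM per kb), Rpl36 (1640) and Rpl4 (1622), while the lowest 3 were again Rpl34 (48.5), Rpl22l1 (49.4) and Rpl7l1 (59.3). Many members have processed pseudogenes of near-identical sequence. In 30 of them, fewer than 50% of the 50-base windows of their transcripts were found in no other annotated gene, and Rpl36, Rplp1 and Rpl19 belong to these 30. How the counting treated reads that match several places is not stated, so levels of such members are uncertain, and this was not tested beyond the split given with the PD03 results.

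From the lowest to the highest of the 11 group means, a member changed by a median of 1.27-fold. The narrowest range was that of Rpsa, a small subunit protein that was also described as a laminin receptor, with 1.11-fold. Only 5 members exceeded 1.5-fold, namely Rpl29 (2.07-fold), Rpl22l1 (2.03-fold), Rps2 (1.58-fold), Rps14 (1.55-fold) and Rpl34 (1.51-fold).

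**Figure D1:**
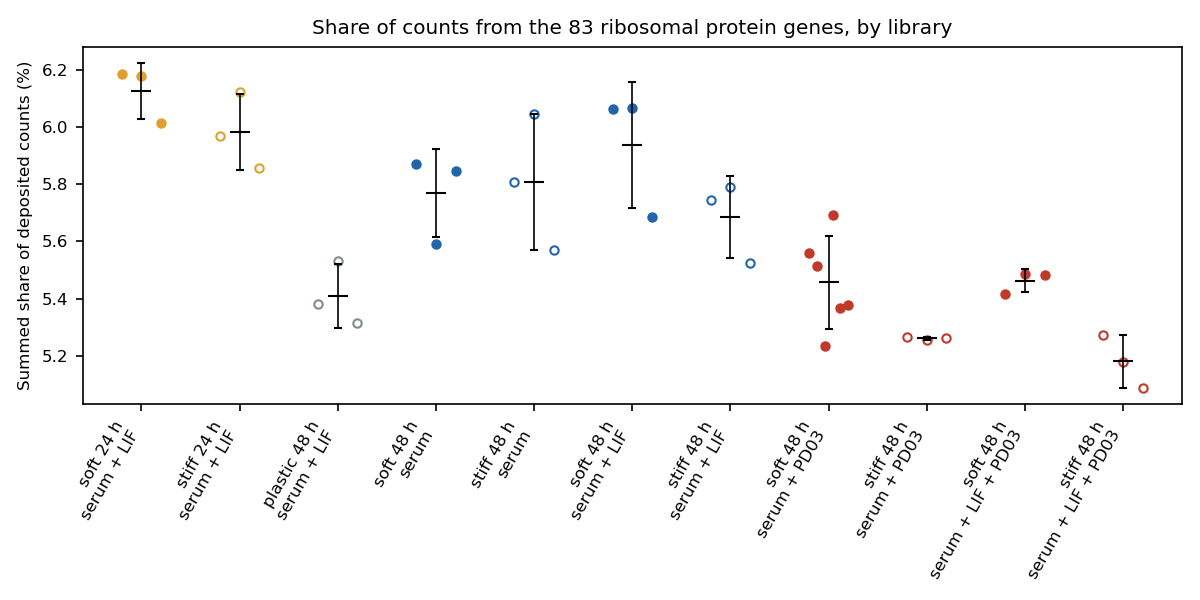
Share of all deposited counts that fell on the 83 ribosomal protein genes (vertical axis, percent, not starting at 0) in each of the 36 libraries (points), with the mean and SD of each of the 11 groups as bars. Libraries with PD03 lay between 5.09% and 5.69%, and hydrogel libraries of 48 h without PD03 between 5.52% and 6.07%.

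Summed over the members, the genes took 5.09% to 6.19% of all counts. The share was highest after 24 h, with 6.13 ± 0.10% on soft and 5.98 ± 0.13% on stiff hydrogels (SD, n = 3 each). After 48 h without PD03, the 12 hydrogel libraries ranged from 5.52% to 6.07% with a median of 5.80%. With PD03, the 15 libraries ranged from 5.09% to 5.69% with a median of 5.37%, so that the ranges overlapped slightly although the medians were apart. Soft serum + PD03 had a share of 5.46 ± 0.16% (n = 6), and 5.50 ± 0.14% without library 3 (n = 5). Plastic had 5.41 ± 0.11%, and these libraries also had the largest shares of mitochondrially encoded counts (2.27% to 2.92%) and of Gm26917, a long non-coding RNA locus (2.45% to 3.19%). The part of these shares in the plastic value was not tested. A share of counts falls when other genes rise, and in bulk samples fewer cells with the transcripts and less RNA per cell cannot be told apart.

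**Figure D2:**
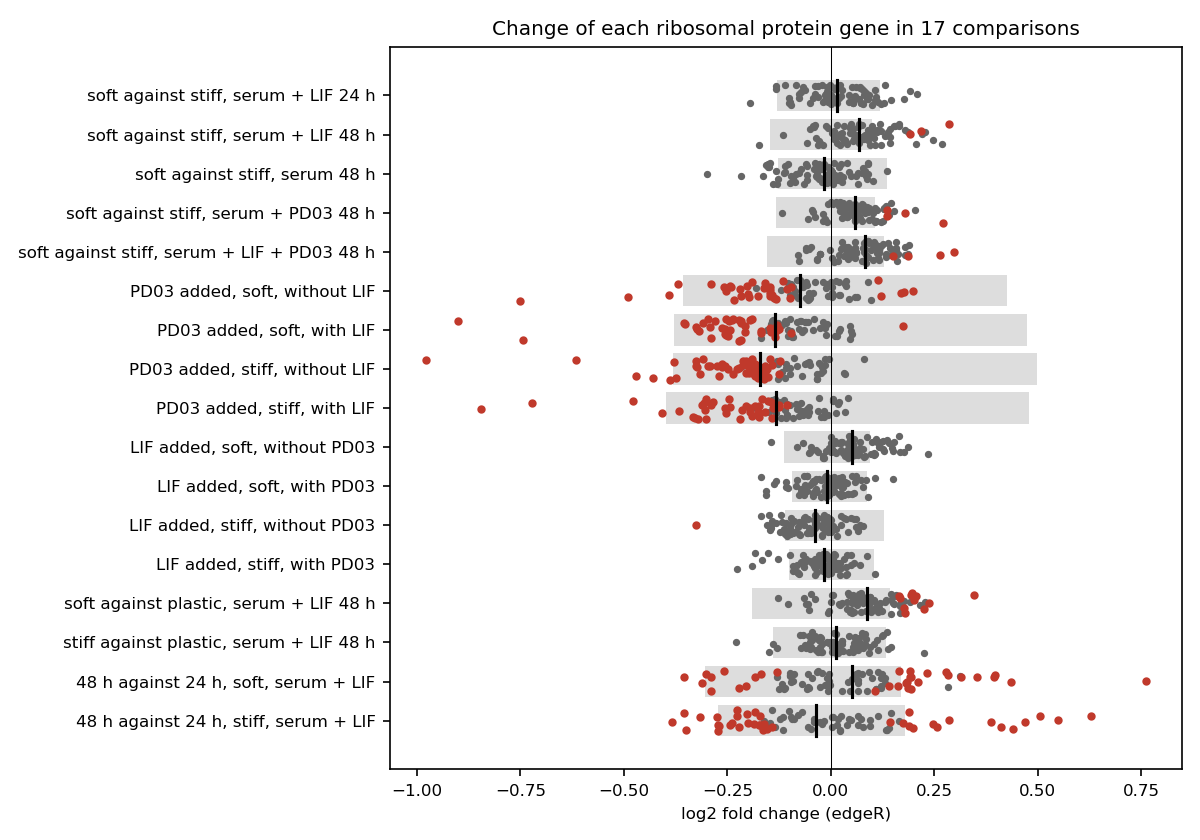
Log2 fold change (horizontal axis, edgeR) of each of the 83 ribosomal protein genes in the 17 pairwise comparisons. Points are genes, in red where the adjusted p was under 0.05, black bars are medians over the members and grey boxes span the middle 50% of all 17702 genes. Members moved mostly to lower values with PD03, with medians of -0.07 to -0.17, and scattered around 0 when LIF was added.

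Addition of PD03 asks how the genes respond when MEK is blocked. PD03 lowered a large part of the family by a small amount, and the same direction was seen on both substrates and with or without LIF. The known ERK targets in the check list, such as Dusp6 (log2 change -2.74 to -3.15), fell in all 4 comparisons, with 6 of 6 genes lower. On soft hydrogels without LIF, 30 members were lower and 5 higher (36.1% and 6.02% of members), where 28.5% of all genes were lower and 29% higher (edgeR quasi-likelihood test, Benjamini-Hochberg adjusted p under 0.05 over all genes). On soft hydrogels with LIF, 41 were lower and 1 higher (49.4% and 1.20%), where 26.6% of all genes were lower and 27.8% higher. On stiff hydrogels without LIF, 49 were lower and none higher (59.0% lower), beside 27.4% lower and 28.4% higher among all genes. On stiff hydrogels with LIF, 39 were lower and none higher (47.0% lower), beside 27.8% lower and 28.3% higher among all genes. The share of lower members thus exceeded that of all genes in each comparison, least on soft hydrogels without LIF. The share of higher members was below that of all genes in all 4. Members had means of 59.7 to 2495 CPM, and shares were not counted over genes of similar level.

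The median change of the members was -0.07 and -0.13 on soft hydrogels without and with LIF, and -0.17 and -0.13 on stiff hydrogels. The median over all genes lay between -0.01 and 0.01. The scaling of the libraries (TMM) itself largely places that median near 0, so changes of the members are relative to the bulk of genes. Of the 83 members, 60 had a negative change in all 4 comparisons and 1 had a positive change in all. Across the 4, 22 members were called lower in each, 62 in at least 1, and 17 were called in none. These joint counts were not made over all genes, so whether they are unusual is not known. In any pair of the 4, 63 to 79 of the 83 members had the same sign, beside 15155 to 15292 of 17702 genes. Of the 48 large subunit genes, 20, 28, 34 and 26 were lower in the order of comparisons above (41.7%, 58.3%, 70.8% and 54.2%). Of the 35 small subunit genes, 10, 13, 15 and 13 were lower (28.6%, 37.1%, 42.9% and 37.1%). Among all genes 28.5%, 26.6%, 27.4% and 27.8% were lower, so the small subunit was at the share of all genes on soft hydrogels without LIF. Among the 53 members with at least 50% unique windows, 17, 23, 30 and 21 were lower and 4, 1, 0 and 0 higher, with medians of -0.06, -0.13, -0.15 and -0.12.

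Single libraries moved these counts. Without library 2 of stiff serum, the library with high members, 29 members were called on stiff hydrogels without LIF in place of 49, and the median was -0.11 in place of -0.17, whereas without library 3 of that group 55 were called and the median was -0.22. Without library 3 of soft serum + PD03, 25 members were lower and 5 higher on soft hydrogels without LIF, in place of 30 and 5. Without library 2 of soft serum + LIF, 30 members were called on soft hydrogels with LIF in place of 42. In the other leave-one-out fits, between 26 and 54 members were called. The median on soft hydrogels without LIF was -0.11 without library 2 of soft serum, in place of -0.07. With the pool in the fit that median ran from -0.11 to -0.04. Between 25 and 36 members were then called, with 20 to 33 lower and 1 to 5 higher.

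**Figure D3:**
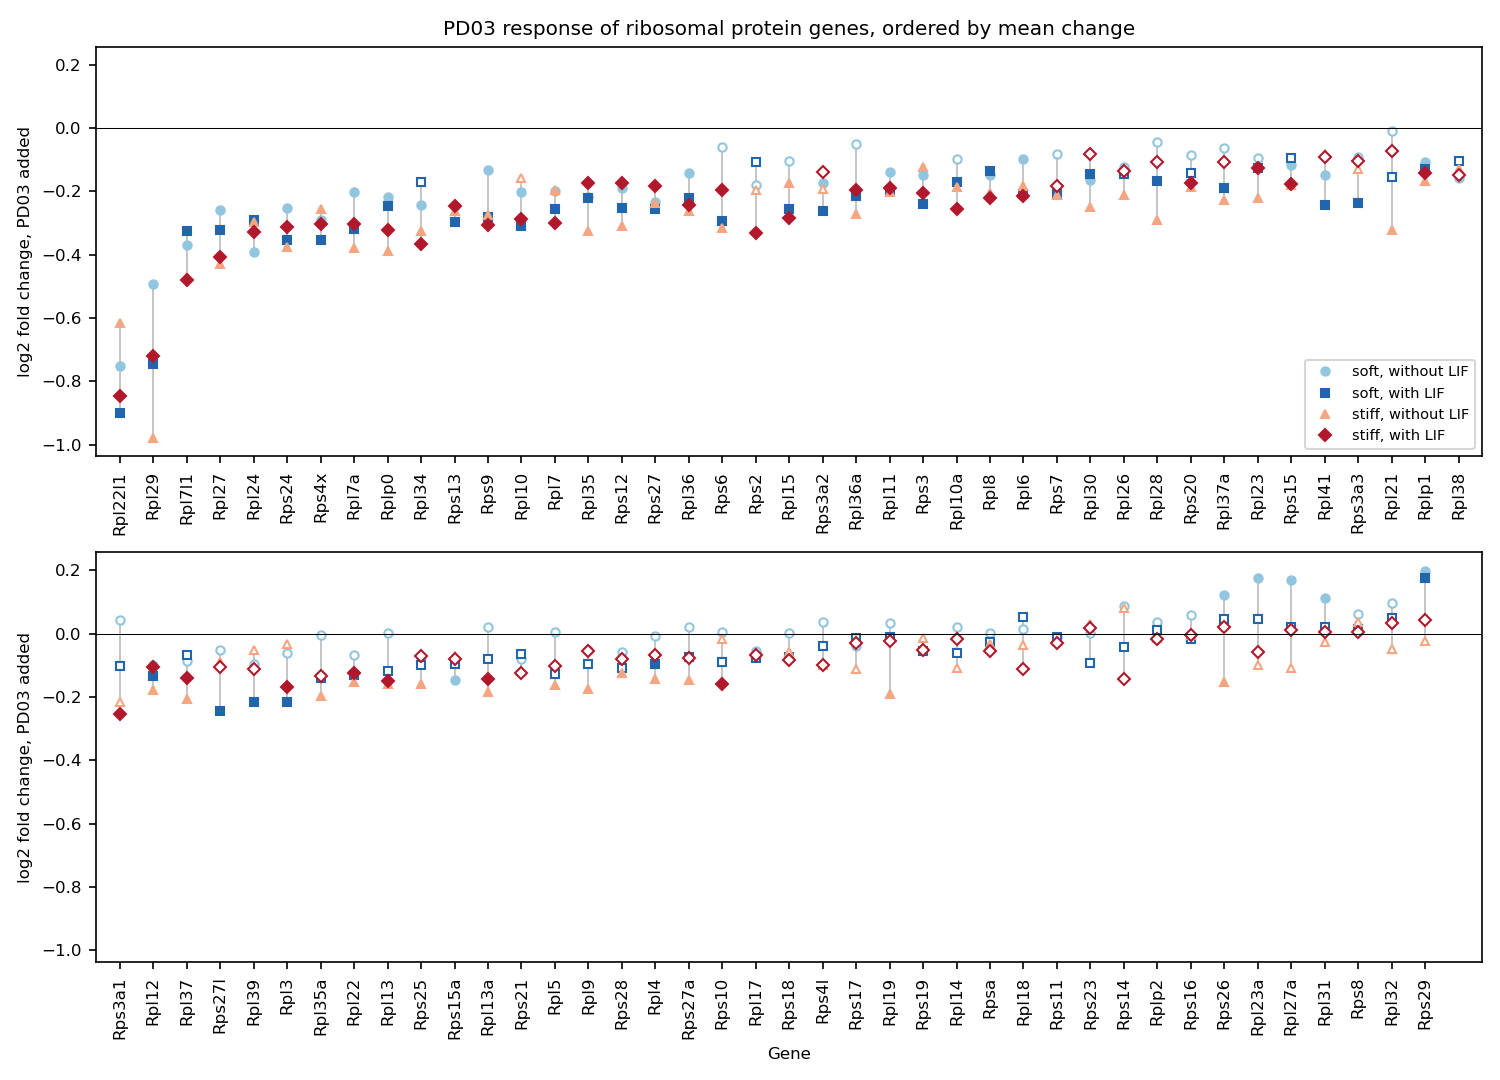
Log2 fold change with PD03 (vertical axis) of 81 of the 83 members, ordered by their mean change from lowest (upper row, left) to highest (lower row, right). Each symbol is 1 of the 4 comparisons, filled where the adjusted p was under 0.05. Rpl22l1 and Rpl29 had the lowest mean changes, with values from -0.49 to -0.98, and Rps29 was at the upper end. Single values of Rpl7l1 came down to -0.48.

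Rpl22l1 (chromosome 3, 28805436 to 28807424, plus strand, GRCm38), the paralogue of Rpl22, had the largest mean change over the 4 comparisons. In hydrogel libraries of 48 h without PD03 it was at 112, 117 and 108 CPM on stiff serum + LIF, 113, 115 and 98.3 on stiff serum, 107, 127 and 109 on soft serum + LIF, and 129, 109 and 110 on soft serum. With PD03 it was at 74.0, 56.0 and 57.4 CPM on stiff serum + LIF + PD03, 71.9, 73.4 and 67.8 on stiff serum + PD03, 59.1, 65.1 and 59.7 on soft serum + LIF + PD03, and 61.1 to 76.1 in the 6 libraries of soft serum + PD03. All 15 libraries with PD03 lay below all 12 without it. The log2 change was -0.75 ± 0.07 (SE) and -0.90 ± 0.08 on soft hydrogels without and with LIF, and -0.62 ± 0.08 and -0.85 ± 0.08 on stiff hydrogels (edgeR adjusted p = 1.6e-13, 1.9e-13, 7.9e-09 and 1.1e-12). These calls held in every alternative run. Only 41.1% of the 50-base windows of Rpl22l1 were unique to it.

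Rpl22 itself moved far less, with log2 changes of -0.07, -0.13, -0.15 and -0.12 in the same order, of which the last 3 were called. The counts of Rpl22l1 were 16.8 ± 1.21% of those of Rpl22 without PD03 (SD, n = 12 libraries, range 14.4% to 18.7%) and 10.7 ± 1.13% with it (n = 15, range 8.50% to 12.3%), so that the ranges of this ratio did not overlap. After 24 h the ratio was 17.2 ± 1.06% (n = 6) and on plastic 15.1 ± 0.37% (n = 3), both near the value without PD03.

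Rpl29 (chromosome 9, 106429454 to 106431568, plus strand, GRCm38), a protein of the large subunit, was the member with the widest range over groups. It was at 165, 186 and 183 CPM on stiff serum + LIF and at 212, 249 and 209 on stiff serum, and at 100, 110 and 114 on stiff serum + LIF + PD03 and 115, 117 and 107 on stiff serum + PD03. On soft hydrogels it was at 217, 228 and 207 CPM in serum + LIF and 214, 161 and 201 in serum, against 119, 137 and 133 in serum + LIF + PD03 and 129 to 146 in serum + PD03. Every library with PD03 was again below every 48 h hydrogel library without it. The log2 change was -0.49 ± 0.06 and -0.74 ± 0.07 on soft hydrogels without and with LIF, and -0.98 ± 0.07 and -0.72 ± 0.07 on stiff hydrogels, called in every alternative run. Rpl29 was also at 122 to 137 CPM in the 24 h libraries and at 165 to 175 CPM on plastic, so that the level without PD03 itself depended on the group.

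Rpl7l1, the paralogue of Rpl7, fell by a similar amount everywhere. Its level without PD03 was 160 to 194 CPM over the 12 hydrogel libraries of 48 h, and with PD03 it was 121 to 143 CPM over the 15 libraries. The groups did not overlap, and the log2 changes were -0.37, -0.32, -0.47 and -0.48. Rpl7 changed by -0.20, -0.26, -0.20 and -0.30, called in all 4, and the ratio of Rpl7l1 to Rpl7 went from 19.5 ± 1.15% to 17.3 ± 0.84%.

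Among the remaining members called in at least 3 of the comparisons with 1 sign, the largest mean changes were those of Rpl27 (-0.26, -0.32, -0.43 and -0.41), Rpl24 (-0.39, -0.29, -0.30 and -0.33), Rps24 (-0.25, -0.35, -0.37 and -0.31), Rps4x (-0.29, -0.35, -0.26 and -0.30), Rpl7a (-0.20, -0.32, -0.38 and -0.30), Rplp0 (-0.22, -0.25, -0.39 and -0.32) and Rpl34 (-0.24, -0.17, -0.32 and -0.37, of which -0.17 was not called). Rplp0 forms the base of the stalk that recruits translation factors. Its level went from 771 to 941 CPM in the 12 libraries without PD03 to 629 to 753 CPM in the 15 with it. Rps24 went from 1401 to 1720 CPM to 1188 to 1362 CPM. For both genes the ranges were apart. Rpl24, Rps4x and Rpl7a have less than 50% unique windows.

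Among other well known members, some were called in all 4 comparisons and some in none. Of the stalk proteins that sit on Rplp0, Rplp1 was lower in all 4 (-0.11, -0.13, -0.17 and -0.14), whereas Rplp2 was called in none (0.04, 0.01, -0.01 and -0.02). Rpsa (0.00, -0.03, -0.03 and -0.05) and Rps19 (-0.05, -0.05, -0.01 and -0.05), a gene mutated in Diamond-Blackfan anaemia, were called in none either. Rps6, the substrate of the S6 kinases, changed by -0.06, which was not called, and by -0.29, -0.31 and -0.20, which were. Rpl11, which together with Rpl5 can bind Mdm2, was lower in all 4 (-0.14, -0.20, -0.20 and -0.19), and Rpl5 changed by 0.01, -0.13, -0.16 and -0.10, of which only -0.16 was called. Rpl13a changed by 0.02, -0.08, -0.18 and -0.14, the last pair called. Rpl10 changed by -0.20, -0.31, -0.16 and -0.29, all called but -0.16, and Rpl38, named for its part in the translation of Hox mRNAs, was called only for its first value among -0.16, -0.10, -0.13 and -0.15.

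Further paralogues and the pseudogenes were called in 0 to 4 of the comparisons, and differences between these genes were not tested. Rps27 was lower in all 4 (-0.23, -0.25, -0.24 and -0.18), while its paralogue Rps27l was called only on soft hydrogels with LIF (-0.25). Rps4l was called in none, and its counts were 45.4 ± 2.81% of those of Rps4x without PD03 and 54.5 ± 4.93% with it. Rps3a1 was called lower on stiff hydrogels with LIF (-0.25), Rps3a2 on soft hydrogels without and with LIF (-0.17 and -0.26) and Rps3a3 on soft hydrogels with LIF (-0.24). Between 9.83% and 34.9% of the windows of these genes were unique, so reads could have been split between them.

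Rises were few and small. Only 5 members were called higher in any of the 4 comparisons, and these were chosen after their values were seen. Rps29 rose by 0.20 ± 0.07 and 0.17 ± 0.08 on soft hydrogels without and with LIF. Rpl23a (0.18), Rpl27a (0.17), Rps26 (0.12) and Rpl31 (0.11) rose on soft hydrogels without LIF. Rpl27a was at 887, 825 and 881 CPM in soft serum and at 925 to 1040 CPM in the 6 libraries of soft serum + PD03, without overlap. Rps26 was the only member called in both directions, at 0.12 on soft hydrogels without LIF (edgeR adjusted p = 0.036) and -0.15 on stiff hydrogels without LIF (edgeR adjusted p = 0.021).

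The PD03 comparisons share no libraries with one another. Across the 83 members, the changes in any pair of the 4 correlated with Pearson's r of 0.75 to 0.89 and Spearman's rho of 0.68 to 0.83, and with r of 0.68 to 0.83 without Rpl29 and Rpl22l1. Across all 17702 genes r was 0.87 to 0.89. Genes are not independent replicates, so these values are descriptions of how alike the lists were.

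Members were also grouped by how often PD03 lowered them, and the promoter matches of the groups were counted. The ETS core was present in 9 of 11 members lowered in no comparison, in 18 of 32 lowered in 1 to 3, and in 7 of 17 lowered in all 4. The oligopyrimidine start was present in 8 of 11, 14 of 32 and 7 of 17, and the Sp1 core in 10 of 11, 18 of 32 and 10 of 17. The E-box was in 2 of 11, 4 of 32 and 0 of 17, and TATAAA in 0 of 11, 5 of 32 and 2 of 17. The YY1 cores were spread about evenly, with ATGGCG in 3 of 11, 11 of 32 and 5 of 17 and CCATNTT in 4 of 11, 11 of 32 and 5 of 17. The promoters of Rpl27a and Rpl31 printed above hold the ETS core, the Sp1 core and the oligopyrimidine start, that of Rpl27 holds CCGGAA repeated in tandem without an oligopyrimidine start, and that of Rpl22l1 holds TATAAA and an oligopyrimidine start. The groups were formed from measured changes, and no test was made.

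**Figure D4:**
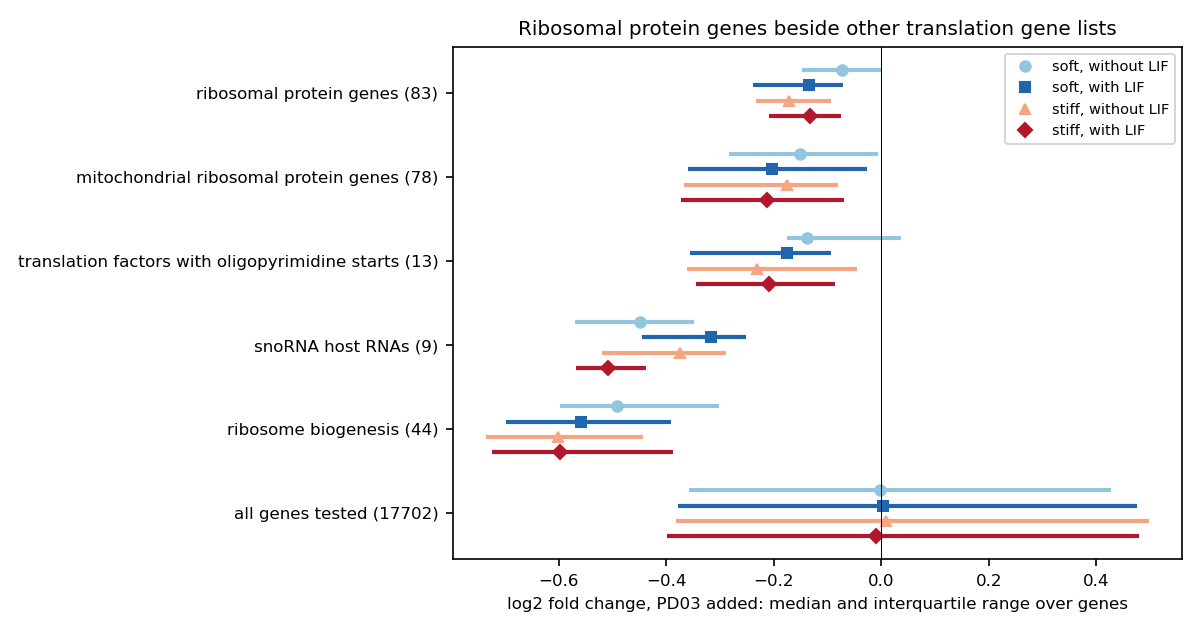
Median (symbols) and middle 50% (bars) of the log2 fold change with PD03 (horizontal axis) over the genes of each list, with the number of genes tested in parentheses, for each of the 4 comparisons. Ribosomal protein genes had medians of -0.07 to -0.17, and ribosome biogenesis genes of -0.49 to -0.60.

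Other genes of the translation machinery moved the same way and mostly further. Of 44 genes for ribosome biogenesis, which make and process ribosomal RNA or assemble the subunits, 43 were lower in each of the 4 comparisons, with medians of -0.49, -0.56, -0.60 and -0.60. Of 78 genes for mitochondrial ribosomal proteins, 37, 42, 46 and 48 were lower and 12, 6, 4 and 6 higher, with medians of -0.15, -0.20, -0.17 and -0.21. Of 13 translation factors whose mRNAs also start with pyrimidines, 9, 8, 8 and 8 were lower, with medians of -0.14, -0.17, -0.23 and -0.21, and 1 was higher in the first comparison. Of 9 snoRNA host RNAs tested, 7, 8, 7 and 8 were lower. Medians of the ribosomal protein genes were thus closest to those of the mitochondrial ribosomal proteins and translation factors. They were well short of those for biogenesis. All-gene medians were near 0, where the scaling largely places them, and 26.6% to 28.5% of all genes were lower.

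Regulators of the pathway changed in both directions, with 5, 7, 6 and 7 of 17 lower and 6, 5, 5 and 7 higher. Among all genes 28.5%, 26.6%, 27.4% and 27.8% were lower and 29%, 27.8%, 28.4% and 28.3% higher. Changes in both directions were thus not particular to this list. Myc had log2 changes of -2.63 to -2.94 and Mycn of -0.80 to -0.98. Larp1, which binds oligopyrimidine mRNAs, had changes of -0.52 to -0.67, and Eif4ebp1, an inhibitor of translation initiation, rose by 0.38 to 0.53. Of 9 p53 targets, 6 were higher in each comparison, beside 27.8% to 29% of all genes.

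Markers of other cell types moved with PD03 as well. Summed trophoblast markers ranged from 91.5 to 174 CPM in the 48 h hydrogel libraries without PD03 and from 404 to 883 CPM with it, with 6 of 7 markers higher and 1 lower (5 and 1 on stiff hydrogels with LIF), and Elf5 was under 1 CPM on average. Primitive endoderm markers went from 47.6 to 70.2 CPM to 83.1 to 141 CPM, with Sox17 under 1 CPM. Fibroblast markers were at 28.2 to 61.4 CPM and 36 to 101 CPM, with 5 of 10 under 1 CPM. Embryonic stem cell markers were at 4395 to 5014 CPM and 5032 to 5785 CPM. The part of these markers in the change of the members was not tested.

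**Figure D5:**
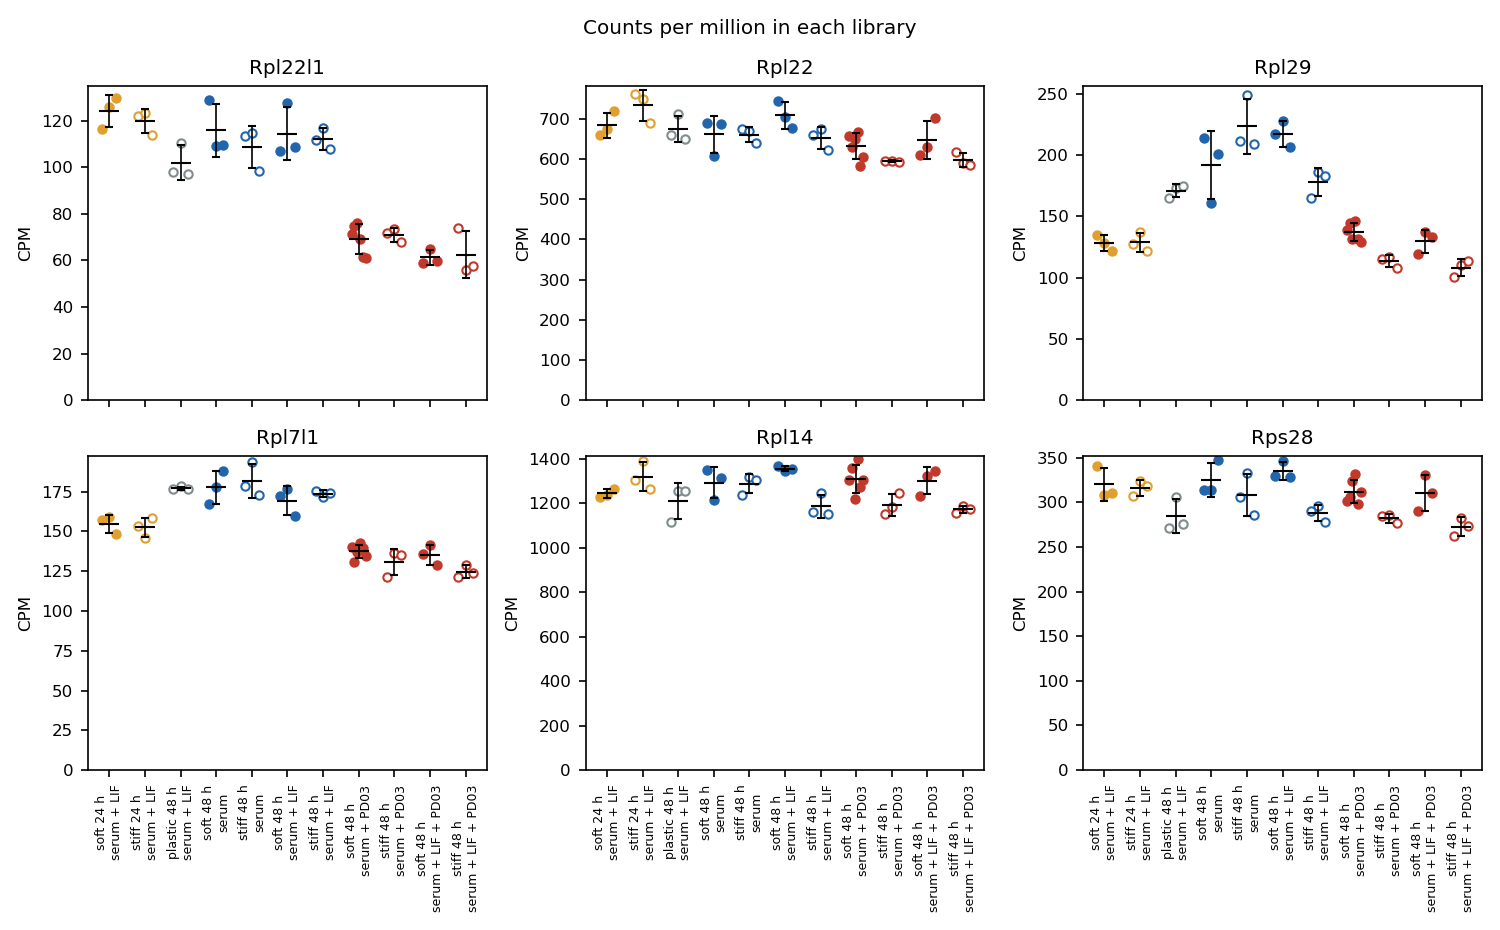
CPM (vertical axis, starting at 0, scaled by library) in each library for 6 members, with the mean and SD of each group as bars. Filled symbols are soft hydrogels, and red symbols are libraries with PD03. Rpl22l1, Rpl29 and Rpl7l1 were lower in all PD03 libraries than in the 48 h hydrogel libraries without it, whereas Rpl22 overlapped. Rpl14 and Rps28 were higher on soft than on stiff hydrogels after 48 h in serum + LIF. The calls of Rpl14 and Rps28 there held in 0 of the 45 pool assignments.

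Comparison of soft with stiff hydrogels asks whether stiffness alters the family, and few members differed. After 24 h, none of the 83 was called, against 1.03% of all genes higher and 2.52% lower, and the median change was 0.02 (edgeR, 9 members at an unadjusted p under 0.05, and none by DESeq2). After 48 h in serum + LIF, 3 were higher and none lower, against 0.446% and 0.333% of all genes, with a median of 0.07. In serum alone, none was called, against 2.08% and 2.77%, with a median of -0.02 (edgeR, 10 at an unadjusted p under 0.05, and 2 lower by DESeq2). That median was 0.036 without library 2 of stiff serum and -0.062 without its library 3, so that its sign rested on single libraries. In serum + PD03, 4 were higher and none lower, against 2.13% and 3.42%, with a median of 0.06. In serum + LIF + PD03, 4 were higher and none lower, against 2.8% and 4.82%, with a median of 0.08. Of all members, 77 were called in none of the 5 and 13 had a positive change in all 5, and these joint counts were not made over all genes.

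Rpl14 and Rpl29 were called higher on soft hydrogels in 3 of the 5 comparisons. Rpl14, a protein of the large subunit, was at 1364, 1342 and 1355 CPM in soft serum + LIF and 1160, 1244 and 1152 in stiff serum + LIF after 48 h. It was at 1230, 1322 and 1345 against 1155, 1185 and 1173 CPM in serum + LIF + PD03, and at 1217 to 1397 against 1150, 1182 and 1244 in serum + PD03. The ranges were apart in serum + LIF and serum + LIF + PD03 and overlapped in serum + PD03. The log2 differences were 0.19 ± 0.05, 0.15 ± 0.05 and 0.14 ± 0.04 (edgeR adjusted p = 0.041, 0.049 and 0.049). In serum alone and at 24 h the differences were 0.01 and -0.09, not called.

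Rpl29 was higher by 0.29 ± 0.07 with LIF, 0.27 ± 0.06 with PD03 and 0.26 ± 0.07 with both (edgeR adjusted p = 0.033, 0.0041 and 0.014), and in serum alone the difference was -0.22 (edgeR adjusted p = 0.064). Rps28, a small subunit protein, was at 330, 346 and 329 CPM in soft and 291, 296 and 278 in stiff serum + LIF, a difference of 0.22 that was called, and it was called with 0.19 in serum + LIF + PD03. The remaining calls were Rps6 (0.18) and Rps9 (0.13) in serum + PD03 and Rpl34 (0.30) in serum + LIF + PD03. None of these 11 calls was kept in every alternative run. With the pool in the fit, the serum + LIF calls of Rpl14, Rpl29 and Rps28 each held in 0 of the 45 assignments. In serum + PD03, the calls of Rpl14, Rpl29, Rps6 and Rps9 held in 3, 17, 3 and 0. In serum + LIF + PD03, those of Rpl14, Rpl29, Rps28 and Rpl34 held in 3, 6, 3 and 9.

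These counts rested on single libraries. In serum + LIF at 48 h, 10 were called without library 3 of the soft group, 1 without its library 1, and 0 without its library 2 or without stiff library 1 or 3. In serum + LIF + PD03, 7 were called without soft library 1, 0 without soft library 2 or stiff library 1, 2 without soft library 3 and 1 without stiff library 3. In serum + PD03, 2 were called without soft library 1, 2 or 6 and 1 without soft library 4 or any of the stiff libraries. At 24 h, 1 was called without soft library 3 or stiff library 2 or 3, and in serum 1 without soft library 1 and 2 without stiff library 3. With the pool in the fit, 0 to 1 were called at 48 h in serum + LIF, 0 to 3 in serum, 0 to 4 in serum + PD03 and 0 to 8 in serum + LIF + PD03.

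Whether the response to PD03 differed between substrates was tested as an interaction. Without LIF, 2 members were called, against 0.407% of all genes higher and 0.39% lower, and the median difference was 0.09. For Rpl29 the PD03 change was higher on soft hydrogels by 0.49 ± 0.09 (edgeR adjusted p = 0.0033), which are changes of -0.49 on soft and -0.98 on stiff hydrogels. For Rpl27a the difference was 0.28 ± 0.07 (edgeR adjusted p = 0.034), from 0.17 on soft and -0.11 on stiff hydrogels, of which the latter was not called. None was called without library 2 of soft serum, and 1 was called without any 1 of 9 other libraries. With LIF none was called, against 0.119% higher and 0.949% lower (edgeR, 3 at an unadjusted p under 0.05, and none by DESeq2), and the smallest p-values were those of Rpl18 (0.16) and Rpl41 (-0.15).

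Addition of LIF left almost no member called. On soft hydrogels without PD03 none was called, against 0.0169% of all genes higher and 0% lower (edgeR, 11 at an unadjusted p under 0.05, and none by DESeq2), and with PD03 none, against 0.0395% and 0.0678% (edgeR, 8 at an unadjusted p under 0.05, and none by DESeq2). On stiff hydrogels without PD03, Rpl29 was lower by 0.32 on the log2 scale and was the only call, against 0.712% higher and 0.695% lower among all genes, and with PD03 none was called, against 0.294% and 0.22% (edgeR, 3 at an unadjusted p under 0.05, and none by DESeq2). The Rpl29 call was lost without library 2 of stiff serum or library 1 of stiff serum + LIF. Median changes of the members were 0.05, -0.01, -0.04 and -0.02 in this order. With each library left out, they ran from 0.013 to 0.098, from -0.026 to 0.014, from -0.094 to 0.0040 and from -0.028 to -0.0024. The third was positive without library 2 of stiff serum.

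Against plastic in serum + LIF, soft hydrogels had 11 members higher and none lower (13.3% higher), beside 5.29% of all genes higher and 6.47% lower, with a median of 0.09. The largest were Rpl29 (0.34), Rps28 (0.24), Rpl28 (0.23), Rps3 (0.21) and Rps16 (0.20). The count was 6, 5, 7 and 4 without plastic library 1, plastic library 3, soft library 1 and soft library 2, and 25 without soft library 3. With the pool in the fit it was 0 to 2, and the median ran from -0.052 to 0.25. On stiff hydrogels none was called, beside 1.95% higher and 3.59% lower, with a median of 0.01 (edgeR, 8 at an unadjusted p under 0.05, and 1 lower by DESeq2). With the pool in the fit, 0 were called on stiff hydrogels against plastic, and that median ran from -0.023 to 0.053. Both comparisons use the same plastic libraries. Other measures moved with the substrate. Summed trophoblast markers were at 232 to 250 CPM on plastic, 91.5 to 122 on soft and 137 to 160 on stiff hydrogels, with 4 of 7 lower on soft hydrogels. Fibroblast markers were at 75.9 to 89.1 CPM on plastic, 31.3 to 35.6 on soft and 39.5 to 48.0 on stiff hydrogels, with 3 of 8 tested lower and 1 higher on soft hydrogels. Primitive endoderm markers were at 46.3 to 51.2, 57.4 to 70.2 and 56.6 to 57.7 CPM in the same order. The mitochondrially encoded share was 2.27% to 2.92% on plastic, 0.626% to 1.44% on soft and 1.11% to 1.25% on stiff hydrogels. The part of these measures in the change of the members was not tested.

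Between 24 h and 48 h in serum + LIF the family did not move as one. On soft hydrogels, 21 members were higher and 11 lower after 48 h (25.3% and 13.3%), beside 12.9% and 11.4% of all genes, with a median of 0.05. On stiff hydrogels, 15 were higher and 24 lower (18.1% and 28.9%), beside 12.6% and 13% of all genes, with a median of -0.04. Of the 83, 9 were higher on both substrates and 11 lower on both, 30 had a positive change on both and 30 a negative one. The sign was thus the same on both for 60 of 83 members, a share near that of all genes (12757 of 17702). Calls shared by both substrates were not counted over all genes, and no share was counted over genes of similar level. Rpl29 (0.76 on soft and 0.47 on stiff), Rps3a1 (0.40 and 0.50) and Rps7 (0.39 and 0.44) were among the 5 that rose most on each, and Rps26 (-0.29 and -0.38), Rpl39 (-0.31 and -0.35) and Rps21 (-0.35 and -0.32) among the 5 that fell most on each.

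Other members led on 1 substrate. On soft hydrogels, Rpl34 (0.44) and Rpl5 (0.35) rose and Rplp2 (-0.29) fell. On stiff hydrogels, Rps2 (0.63) and Rps14 (0.55) rose and Rpl37a (-0.36) and Rpl21 (-0.27) fell. Rps2 varied between libraries, from 300 to 395 CPM on stiff hydrogels at 24 h and from 469 to 592 at 48 h, and it has 43.6% unique windows. Across members, the changes on soft and stiff hydrogels, which share no libraries, correlated with Pearson's r of 0.78 and Spearman's rho of 0.74 (n = 83, across genes), and across all 17702 genes with r of 0.38 and rho of 0.49. All 24 h libraries came from 1 pool and nearly all of those of 48 h from others. With the pool in the fit, the count fell to between 0 and 6 on soft hydrogels and to between 10 and 24 on stiff hydrogels, where 1 of the 3 libraries of 48 h shared the pool of 24 h. On stiff hydrogels 8 of the 39 calls held in all 45 pool assignments and in every other alternative run, among them Rpl29, Rps3a1, Rps7, Rps14, Rps26 and Rpl39. On soft hydrogels none of the 32 did, and the call of Rpl29 held in 44 of the 45 assignments. Without soft 48 h library 2 the count on soft hydrogels was 20, and without stiff 24 h library 1 the count on stiff hydrogels was 25. Biogenesis genes, by comparison, moved together over time, with 37 of 44 higher on soft and 28 of 44 on stiff hydrogels and none lower. These counts are without the pool in the fit, and biogenesis genes were not examined with it.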

How the data were processed

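RNA of mouse embryonic stem cells was sequenced in 36 libraries of 11 groups. According to the labels, the authors made libraries with a NuGen kit, aligned reads to mm10 with STAR 2.5.2a and counted them per gene with HTSeq. The deposited values are unnormalised counts, 1 whole number for each Ensembl gene and library. Strand and multimapping settings are not given in the sources used here. Columns carry a group but no replicate number, and 0 columns were left unused. Groups were taken from the labels.

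Counts were fitted with edgeR 4.0.16 in R 4.3.3 (TMM factors, filterByExpr, 1 coefficient per group over all 36 libraries, quasi-likelihood test), and p-values were adjusted by Benjamini-Hochberg over the 17702 genes tested, with a threshold of 0.05. CPM values are scaled by TMM. The study itself used DESeq on pairs of groups. Alternatives were DESeq2 1.42.0, its size factors, TMM factors without the members, no filter, only the groups compared, members with at least 50% unique windows, a pool term over 45 possible assignments of libraries to pools, and each library left out. Pool terms and DESeq2 for the median change, and the leaving out of library 3 for the summed share, were chosen after seeing the data. The fit was tested on simulated data with known changes in a single comparison. Those changes were larger than most of the changes of members given here, so the test does not cover changes as small as these.

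Gene coordinates, exon lengths and 50-base windows came from the GENCODE M21 annotation of GRCm38, and promoters from RefSeq. The genes named were the paralogue pairs, up to 10 members per direction with the largest mean PD03 change called in at least 3 comparisons, the 5 largest called members per direction in the other comparisons, those called in at least 3 soft against stiff comparisons, a set of well known members, the extremes per length, the smallest p-values of each interaction and the members next to the minimum. A few genes are not reported here by name, and counts and medians over the members include them. The members and lists were chosen with earlier results of these data known.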

Additional observations from a re-analysis of the deposited data

Results flagged for a closer look

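In the 6 libraries of soft serum + PD03, 9 members had 1 library far from the other 5 by Dixon's criterion, which chance alone meets in about 1 in 20 groups. In library 3, Rpl10 was at 367 CPM (others 433 to 469), Rps4x at 614 (679 to 718), Rpl7 at 728 (778 to 807), Rpl5 at 645 (768 to 800), Rpl30 at 196 (236 to 255) and Rps7 at 689 (890 to 944), all below the others. Rps23 at 291 CPM (241 to 257) and Rpl7a at 977 CPM (838 to 887) were above the others in the same library. In library 6, Rps16 was at 467 CPM (others 488 to 498). The remaining groups had 3 libraries and were not examined in this way. Response to PD03 without LIF differed between soft and stiff hydrogels for Rpl29, by 0.49 ± 0.09 on the log2 scale (edgeR adjusted p = 0.0033), and for Rpl27a, by 0.28 ± 0.07 (edgeR adjusted p = 0.034).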

How the results depend on the processing

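All PD03 medians stayed negative in every alternative run, and between 25 and 49 members were called with a pool term. Of the 165 PD03 calls of members, 96 held in every alternative, against 0 of 11 for soft against stiff and 8 of 85 for the rest. Other scaling factors moved no median by more than 0.01, and the only one to change sign was that of the interaction with LIF (0.0005 to -0.0060). The largest shifts came from the filter, the libraries fitted and the pool term, and their cause was not tested. Without a filter, soft against stiff gave 3 calls at 24 h, 11 in serum + LIF, 7 in serum and 8 in serum + LIF + PD03 at 48 h. Without a filter, soft against plastic gave 29, stiff against plastic 1, the interaction without LIF 9, and LIF 1 on soft hydrogels without PD03, 5 on stiff without PD03 and 1 on stiff with PD03. With only the groups compared, soft against stiff gave 1 in serum, 8 with PD03 and 8 with PD03 and LIF, stiff against plastic 2, the interaction without LIF 1 and LIF on stiff hydrogels with PD03 3. By DESeq2, soft against stiff gave 8 in serum + LIF and 2 in serum at 48 h, and stiff against plastic 1.

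With a pool term, soft against stiff gave at most 1 call at 24 h, 0 to 1 in serum + LIF, at most 3 in serum, as few as 0 with PD03 and 0 to 8 with PD03 and LIF. Soft against plastic gave 0 to 2, 48 h against 24 h 0 to 6 on soft and 10 to 24 on stiff hydrogels, LIF on stiff hydrogels as few as 0, and the interaction without LIF as few as 1. Medians then ran from -0.10 to 0.17 for time on soft hydrogels, from -0.052 to 0.25 for soft against plastic, and for soft against stiff from -0.015 to 0.18 in serum + LIF, -0.11 to 0.056 in serum and 0.0025 to 0.17 in serum + LIF + PD03. Time on soft hydrogels reversed for Rpl17 (-0.12), Rpl26 (0.033), Rpl27 (-0.048), Rpl30 (-0.070), Rpl31 (0.060), Rpl35 (-0.0039), Rpl4 (-0.025), Rps15a (-0.069), Rps19 (0.035) and Rps6 (-0.0067). Soft against plastic reversed for Rpl14 (-0.00151), Rpl30 (-0.075) and Rps3 (-0.0010).

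With each library left out in turn, PD03 gave 26 to 37 calls on soft hydrogels without LIF, 30 to 54 with LIF, 29 to 55 on stiff hydrogels without LIF and 26 to 35 with LIF. Soft against stiff gave 0 to 1 at 24 h, 0 to 10 in serum + LIF, 0 to 2 in serum, 1 to 5 with PD03 and 0 to 7 with PD03 and LIF. Soft against plastic gave 4 to 25, time 20 to 33 on soft and 25 to 39 on stiff hydrogels, LIF on stiff hydrogels without PD03 0 to 1, and the interaction without LIF 0 to 2. The medians ran from -0.22 to -0.11 for PD03 on stiff hydrogels without LIF, from 0.068 to 0.15 for soft against plastic, from 0.039 to 0.14 for soft against stiff in serum + LIF, and from 0.019 to 0.12 and -0.066 to 0.020 for the interaction without and with LIF.

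The median level per length was 496 CPM per kb with the longest transcript, and the log2 ratio of the summed share with and without PD03 was -0.076 in place of -0.12 as a median over members. No paired analysis was possible because the columns of the count table carry no replicate numbers. With 3 libraries in most groups, precision was limited by the spread between libraries.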
